A study of Mus musculus with 16 samples.

Results

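Transcripts of 8 genes of pericellular proteolysis and the start of clotting were followed in the left atrium (LA) of elderly female mice. They were Plat, Plau and Plaur (plasminogen activation), Serpine2, Serpina3n and Serpinf1 (serpins), and F3 and Tfpi (tissue factor and its inhibitor). The genes were chosen by symbol, with results of these same libraries already known, from a table of 24972 genes, and all 8 were found in it. Their values are therefore a description, and no p-value of theirs is given. The 16 libraries, 4 in each of 4 groups, were made from RNA of the whole LA of C57BL6/J females that had reached 24 months of age. Ovx + AngII mice had been ovariectomized at 12 months of age and received angiotensin II (AngII) for 4 weeks. Ovx mice had been ovariectomized at 12 months and received no AngII. AngII mice kept their ovaries and received AngII for 4 weeks, and Control (Ctrl) mice kept their ovaries and received no AngII. AngII came from a micro-osmotic pump under the skin, a model of hypertensive stress in which the peptide reaches every organ and not the heart alone. Per the text of the study, a sham operation was made but no pump filled with vehicle was placed. The labels do not say whether a library came from 1 animal. SDs and p-values measure the spread between these libraries, which may be partly technical. The comparisons ask how the LA responds to AngII in mice with and without ovaries, and what ovariectomy does with and without AngII.

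Plasmin, the protease that dissolves fibrin and cleaves several matrix proteins, is made from circulating plasminogen by the tissue-type activator (Plat) and by urokinase (Plau), which the receptor encoded by Plaur holds at the cell surface. Serpins are a large family of proteins, most of which trap a serine protease by presenting a bait loop. Tissue factor (F3) is the membrane receptor that starts coagulation after binding factor VII, and tissue factor pathway inhibitor (Tfpi), a Kunitz-type protein largely made by endothelium, stops that first step. In the heart these systems are best known for fibrin removal in vessels and for matrix turnover during remodelling.

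All positions are on the mm10 (GRCm38) build, after the RefSeq annotation. Plat lies on chromosome 8 (22757722 to 22782848, plus strand), Plau on chromosome 14 (20836662 to 20843388, plus strand) and Plaur on chromosome 7 (24460937 to 24475970, plus strand). Serpine2 lies on chromosome 1 (79794317 to 79858665, minus strand), Serpina3n on chromosome 12 (104406646 to 104414334, plus strand) and Serpinf1 on chromosome 11 (75410029 to 75422623, minus strand). F3 lies on chromosome 3 (121723537 to 121735052, plus strand) and Tfpi on chromosome 2 (84432855 to 84476775, minus strand). Serpina3n belongs to a cluster of near-identical serpin genes. How reads common to those copies were divided is not given in the sources used here, so its level is less certain than that of the other genes.

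Promoter sequence is shown for Serpina3n, Serpinf1 and Tfpi, because these were the 3 genes whose Ovx + AngII and Ovx libraries did not overlap. The RefSeq promoter table of GRCm38.p6 held 6 of the 8 genes, and Plat and Plau were missing from it. The stretches lie upstream of every annotated start of the gene, at chr12:104406458-104406645 (plus strand, 188 bases) for Serpina3n, chr11:75422702-75422873 (minus strand, 172 bases) for Serpinf1 and chr2:84476776-84477009 (minus strand, 234 bases) for Tfpi. Each is written 5′ to 3′, and capitals mark a match to a motif searched for on both strands.
Serpina3n: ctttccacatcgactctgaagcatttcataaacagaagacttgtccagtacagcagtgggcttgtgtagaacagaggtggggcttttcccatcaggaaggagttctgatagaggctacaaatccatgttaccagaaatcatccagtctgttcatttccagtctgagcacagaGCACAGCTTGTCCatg
Serpinf1: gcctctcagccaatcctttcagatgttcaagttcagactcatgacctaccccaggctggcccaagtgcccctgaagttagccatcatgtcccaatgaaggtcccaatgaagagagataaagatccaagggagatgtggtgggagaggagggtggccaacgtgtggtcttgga
Tfpi: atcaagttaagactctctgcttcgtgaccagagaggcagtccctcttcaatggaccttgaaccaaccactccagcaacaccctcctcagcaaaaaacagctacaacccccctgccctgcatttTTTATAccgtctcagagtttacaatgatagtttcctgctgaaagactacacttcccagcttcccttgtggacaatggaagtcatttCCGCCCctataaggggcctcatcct
The capitals in Serpina3n match the glucocorticoid receptor motif (a palindrome with the core letters ACA and TGT). Those in Tfpi match, from the 5′ end, the TATA box letters TATAAA on the other strand and the GC box GGGCGG on the other strand. The Serpinf1 stretch holds no match, and a Smad motif (CAGACA) lies between it and the start site used by the table. Among the 250 bases before all 32851 start sites in the table, the glucocorticoid receptor motif was found in 0.387%, the TATA box in 12.4%, the GC box in 32.7% and the Smad motif in 17.1%. The AP-1 motif TGANTCA, found in 6.75% of all windows, was present upstream of F3 and Plaur, and the GC box was also present upstream of F3, Plaur and Serpine2. None of the 6 genes had a match to the TEAD (GGAATG, 12.6% of windows), STAT (TTCNNNGAA, 7.02%) or E-box (CACGTG, 6.02%) letters. No motif overlapped another among the letters shown. A match describes these letters only.

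The deposited values are normalised read counts, that is, counts divided by a size factor of each library. They are not whole numbers, and the table gives no read depth. The totals were 17585151 to 18971820 in the Ovx + AngII and Ovx libraries and 19577700 to 21498916 in the AngII and Control libraries. The table carried 2 scales, apart by a ratio of 1.12 (log2 of -0.17 for ovariectomized mice minus mice with ovaries). Values rescaled by median of ratios were therefore used wherever ovariectomized mice were set against mice with ovaries, and deposited values within either side. The heading row of the table puts the AngII heading above the library that its GEO label calls Control, named Ctrl replicate 4 here. The label was kept, and results that rest on this library are also given without it. It stood apart from its group, with a mean correlation of 0.945 with the other controls, against 0.963 to 0.980 for the other 15 libraries within their groups. Markers fitted the labelled tissue. Summed atrial cardiomyocyte markers (6 genes) reached 651300 to 1117000 rescaled counts, against 599 to 1456 for ventricular ones (4 genes), of which Irx4 stayed below 1 in every library.

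Among the 8 genes, Serpinf1 was higher with AngII in both backgrounds, with no overlap of libraries in either. Serpina3n was higher and Tfpi lower in Ovx + AngII than in Ovx mice, again without overlap. In mice with ovaries both had log2 fold changes of the same sign, but libraries overlapped, for Tfpi through Ctrl replicate 4 alone. Libraries did not overlap for 21.8% of all genes in Ovx + AngII against Ovx and for 7.03% in AngII against Control. Plat, Plau, Plaur, Serpine2 and F3 overlapped between groups in every comparison. Values after rescaling are shown for each library in the plot of the 8 genes.

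**Figure D1:**
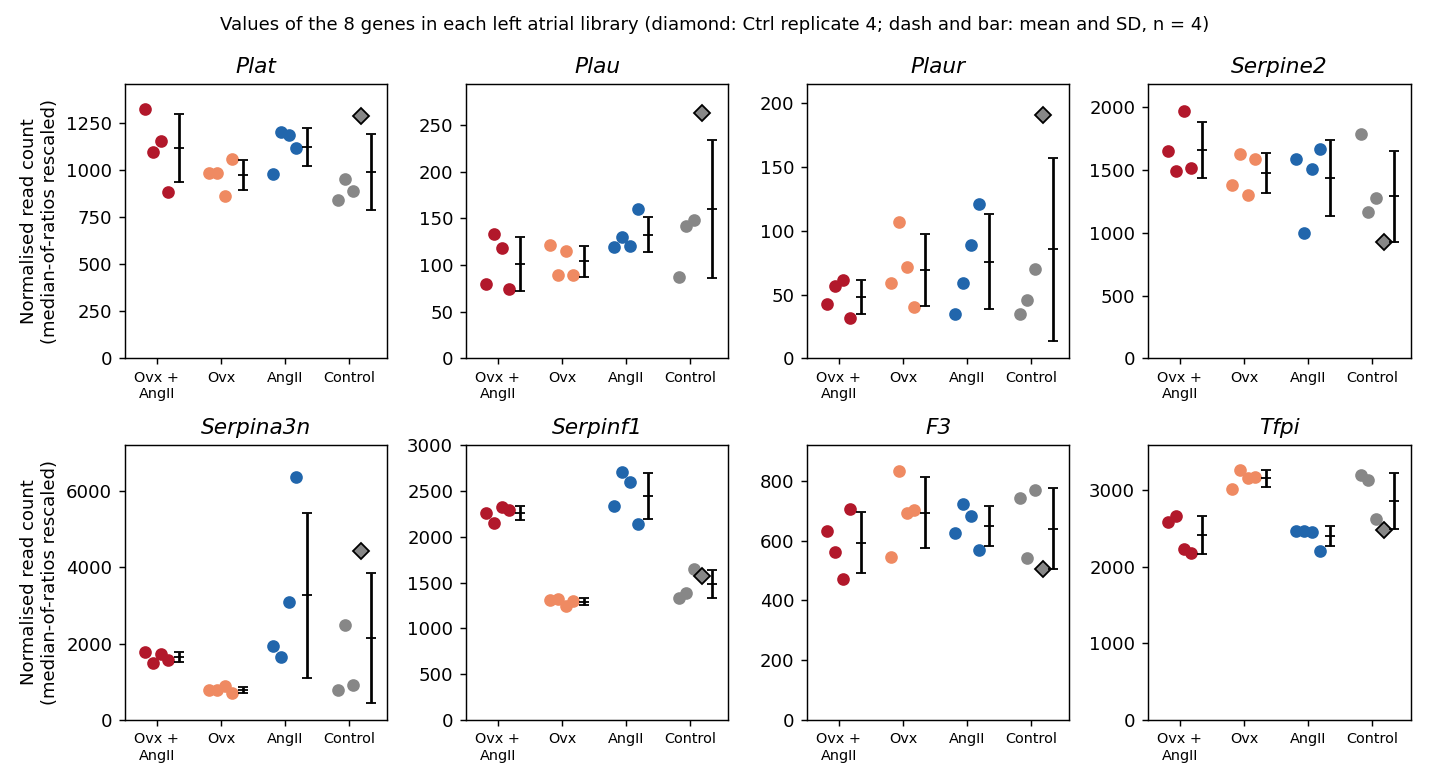
Rescaled normalised read counts of the 8 genes (y axis, from 0) in the 4 libraries of each group (x axis), with the mean and SD (n = 4) beside the points and Ctrl replicate 4 drawn as a diamond. Serpinf1 lies at 2153 to 2328 in Ovx + AngII libraries against 1241 to 1322 in Ovx libraries, while Serpina3n is tight in ovariectomized mice and spread over 772 to 6376 in mice with ovaries.

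Plat encodes tissue-type plasminogen activator, which endothelial cells release and which works best on fibrin. It had 1043, 1273, 1263 and 1185 normalised counts in AngII libraries, against 887, 1010.3, 946 and 1355 in Control libraries. In ovariectomized mice it had 1248, 1034, 1088 and 835 normalised counts with AngII, against 932, 930.3, 816 and 1001 without. The Control library with 1355 was Ctrl replicate 4, which lay above all AngII libraries, and the groups overlapped on both sides. The log2 fold change of Plat was 0.20 ± 0.13 (SE) for AngII against Control, 0.33 without Ctrl replicate 4, and 0.18 ± 0.13 for Ovx + AngII against Ovx.

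Plau encodes urokinase, the activator used by migrating cells and macrophages. It had 127, 138, 128 and 169 normalised counts in AngII libraries, against 92.7, 150.2, 157 and 277 in Control libraries. It had 74.8, 126, 112 and 70.0 in Ovx + AngII libraries, against 115, 84.7, 108 and 84.6 in Ovx libraries. The highest of all 16 values was that of Ctrl replicate 4, and the other 15 lay between 70.0 and 169. Log2 fold changes of Plau with AngII were -0.17 ± 0.27 in mice with ovaries and -0.07 ± 0.27 in ovariectomized mice. The first of these turned to 0.10 when Ctrl replicate 4 was left out. After rescaling, Plau averaged 104 ± 16.7 in Ovx and 160.0 ± 73.8 in Control libraries (SD, n = 4 each), a log2 fold change of -0.52 ± 0.27, which was -0.25 without Ctrl replicate 4.

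Plaur, the membrane-anchored receptor that concentrates urokinase at the cell surface, was the lowest of the 8 genes. It had 37.4, 62.6, 94.2 and 128 normalised counts in AngII libraries, against 36.9, 48.8, 74.7 and 201 in Control libraries. It had 40.1, 53.3, 58.0 and 30.1 in Ovx + AngII libraries, against 55.8, 101, 67.5 and 38.0 in Ovx libraries. Ctrl replicate 4 again held the highest value, and the other 15 libraries ran from 30.1 to 128. The log2 fold change of Plaur was 0.01 ± 0.47 for AngII against Control, and 0.50 without Ctrl replicate 4. It was -0.48 ± 0.47 for Ovx + AngII against Ovx, with overlapping libraries.

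Serpine2 encodes protease nexin, a cell-bound inhibitor of thrombin, urokinase and tissue-type activator. It had 1691, 1055, 1599 and 1764 normalised counts in AngII libraries, against 1892, 1235, 1359 and 978 in Control libraries. The Ovx + AngII libraries had 1556, 1407, 1858 and 1431, against 1307, 1539, 1226 and 1499.9 in Ovx libraries. Both pairs overlapped, and the lowest value of all 16 was that of Ctrl replicate 4. The log2 fold changes were 0.17 ± 0.18 and 0.16 ± 0.18, and the first was 0.03 without Ctrl replicate 4.

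Serpina3n encodes a secreted inhibitor of granzyme B and neutrophil elastase, known in mouse as an acute phase protein. It had 1669, 1413, 1627 and 1470.3 normalised counts in Ovx + AngII libraries, against 741, 727, 831 and 651 in Ovx libraries. Every Ovx + AngII library thus lay above every Ovx library, with a log2 fold change of 1.07 ± 0.46 (SE from the spread of all 4 groups). In mice with ovaries it had 2069, 1757, 3272 and 6759 with AngII, against 816, 2638, 969.6 and 4666 in Control. Those groups overlapped, since Ctrl replicates 2 and 4 lay within the range of the AngII libraries. The log2 fold change there was 0.76 ± 0.46, and it ran from 0.37 to 1.23 when each library was left out in turn. The highest value came without Ctrl replicate 4.

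The spread of Serpina3n differed widely between groups. Its coefficient of variation was 8.0% in Ovx + AngII, 10% in Ovx, 66.3% in AngII and 79.4% in Control libraries. After rescaling it averaged 781 ± 78.3 in Ovx and 2149 ± 1706 in Control libraries, a log2 fold change of -1.10 ± 0.46, and the libraries overlapped because Ctrl replicate 1 was at 772. It averaged 1639.8 ± 131 in Ovx + AngII and 3264 ± 2163 in AngII libraries, a log2 fold change of -0.79 ± 0.46, with Ovx + AngII replicates 1 and 3 above AngII replicate 2. Without Ctrl replicate 4, the control mean of rescaled values was 1389 ± 950 (n = 3) and the difference of Ovx from Control on the log2 scale was -0.63.

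Serpinf1 encodes pigment epithelium-derived factor, a secreted serpin without inhibitory activity that is known to restrain vessel growth and to bind collagen. It had 2491, 2866, 2759 and 2269 normalised counts in AngII libraries, against 1406, 1477, 1750.4 and 1651 in Control libraries. It had 2134, 2028, 2192 and 2159 in Ovx + AngII libraries, against 1239, 1248, 1169.9 and 1223 in Ovx libraries. The lowest library with AngII lay above the highest one without it on both sides. The log2 fold changes were 0.72 ± 0.08 in mice with ovaries and 0.80 ± 0.08 in ovariectomized mice. They stayed within 0.67 to 0.79 and within 0.78 to 0.83 when each library was left out in turn.

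Without AngII, Serpinf1 was slightly lower after ovariectomy. Rescaled values were 1309, 1322, 1241 and 1297 in Ovx libraries, against 1329, 1391, 1647 and 1566 in Control libraries. The groups did not overlap, but Ctrl replicate 1 lay only just above the highest Ovx library. The log2 fold change was -0.19 ± 0.08 after rescaling and -0.36 as deposited, where the scale of the table is part of the difference. With AngII, Serpinf1 averaged 2259 ± 75.3 rescaled counts in Ovx + AngII and 2446 ± 255 in AngII libraries, and these overlapped (log2 fold change of -0.11 ± 0.08).

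F3, the receptor that starts the extrinsic pathway, had 665, 766, 725 and 604 normalised counts in AngII libraries, against 786, 575, 818 and 532 in Control libraries. It had 598, 529, 443 and 667 in Ovx + AngII libraries, against 515, 788, 655 and 662 in Ovx libraries. Neither pair separated, and the log2 fold changes were 0.05 ± 0.16 and -0.23 ± 0.16. The first turned to -0.06 without Ctrl replicate 4, the lowest control. F3 covered a narrow range of group means after rescaling, 593 ± 102 in Ovx + AngII, 694 ± 118 in Ovx, 649.9 ± 67.0 in AngII and 639.9 ± 136 in Control.

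Tfpi, the brake on tissue factor, had 2428, 2506, 2095 and 2047 normalised counts in Ovx + AngII libraries, against 2847, 3084, 2977 and 2988 in Ovx libraries. Every Ovx + AngII library lay below every Ovx library, and the log2 fold change was -0.40 ± 0.09. In mice with ovaries it had 2629, 2609, 2611 and 2337 with AngII, against 3384, 3324, 2787 and 2608 in Control. Only Ctrl replicate 4 lay among the AngII libraries. The log2 fold change was -0.24 ± 0.09, and -0.31 without that library. Ovx against Control gave 0.15 ± 0.09 after rescaling, 0.08 without Ctrl replicate 4 and -0.02 as deposited, and Ovx + AngII against AngII gave 0.00 ± 0.09 after rescaling and -0.17 as deposited, with overlap in both.

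Set side by side, the 2 AngII comparisons share no library. The difference between the response to AngII in ovariectomized mice and that in mice with ovaries (interaction, log2) was 0.08 ± 0.11 for Serpinf1, -0.15 ± 0.12 for Tfpi, 0.31 ± 0.64 for Serpina3n, -0.27 ± 0.23 for F3 and -0.49 ± 0.66 for Plaur. It was between -0.02 and 0.10 for Plat, Serpine2 and Plau. Without Ctrl replicate 4 it was -0.16 for Serpina3n, -0.98 for Plaur, -0.09 for Tfpi, -0.17 for F3, -0.14 for Plat, 0.14 for Serpine2 and -0.17 for Plau, so that the sign of Serpina3n, Serpine2 and Plau turned. When each library was left out in turn, the log2 fold change of Ovx + AngII against Ovx ran from 0.09 to 0.29 for Plat, -0.21 to 0.06 for Plau, -0.71 to -0.25 for Plaur, 0.08 to 0.21 for Serpine2 and -0.34 to -0.12 for F3. None of all 14261 genes tested passed the limma threshold for the interaction, with a smallest adjusted p of 0.839 and 826 genes at an unadjusted p under 0.05.

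**Figure D2:**
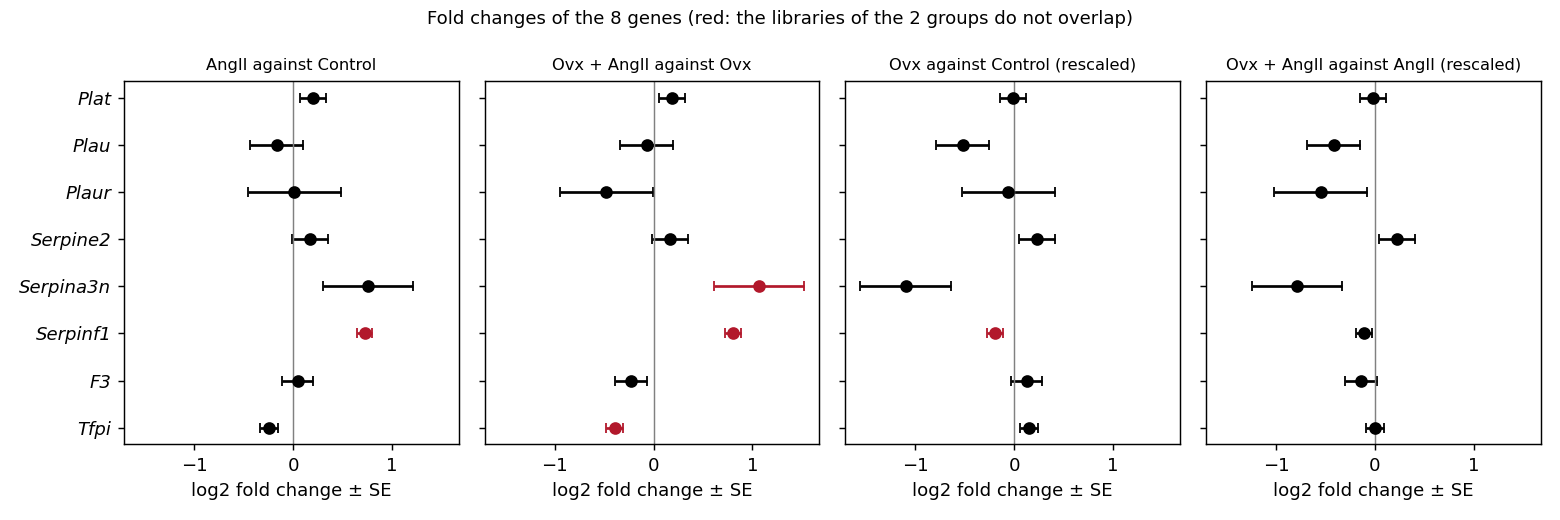
Log2 fold change with its SE (x axis) of the 8 genes (y axis) in the 4 comparisons, the last 2 on rescaled values, with genes whose libraries do not overlap in red. Serpinf1 stands at 0.72 with AngII against Control and at 0.80 in Ovx + AngII against Ovx with short error bars, while Serpina3n and Plaur have the longest bars, with SEs of 0.46 and 0.47.

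The share of all genes past the same limma fit (adjusted p of at most 0.05 over 14261 genes) gives the background of these counts. In AngII against Control, 2.94% of all genes passed and 1 of the 8 did (Serpinf1). Without Ctrl replicate 4, 10.3% of all genes and 2 of the 8 (Serpinf1 and Tfpi) passed there. In Ovx + AngII against Ovx, 10.1% of all genes passed and 2 of the 8 did (Serpinf1 and Tfpi). In fits of only the groups compared, Serpinf1 no longer passed in AngII against Control. In Ovx + AngII against Ovx, Serpina3n passed as well in such a fit. The share of all genes past the threshold in such fits is not given, so these changes have no background. Libraries did not overlap for 7.03% of all genes and 1 of the 8 in the first comparison, and for 21.8% of all genes and 3 of the 8 in the second. In Ovx against Control 4.45% of all genes and 1 of the 8 (Serpinf1) did not overlap, and in Ovx + AngII against AngII 4.53% of all genes and 0 of the 8. As the genes were chosen with these contrasts known, nothing is read from the counts. In the last 2 comparisons 0% of all genes passed the limma threshold and 0 of the 8, with 1234 and 879 genes at an unadjusted p under 0.05.

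Ordered by rescaled level, most neighbouring groups did not differ beyond their SDs. For Serpinf1 the order was AngII (2446 ± 255), Ovx + AngII (2259 ± 75.3), Control (1483 ± 148) and Ovx (1292 ± 35.8). Ovx + AngII and Control, and Control and Ovx, were apart beyond their SDs, and AngII and Ovx + AngII were not. For Tfpi the order was Ovx (3150.4 ± 106), Control (2857 ± 362), Ovx + AngII (2408 ± 246) and AngII (2398 ± 129), with neighbours within their SDs. For Serpina3n only the lowest group, Ovx, was clear of its neighbour, Ovx + AngII. Plat, Plau, Plaur, Serpine2 and F3 had no neighbours apart. Values were also divided by the length of all annotated exons of a gene together, which can exceed that of the transcript present. Per kilobase of this length, Serpina3n and Serpinf1 were the highest of the 8 in Ovx + AngII libraries, at 794 ± 63.2 and 958 ± 31.9 rescaled counts. Tfpi followed at 441 ± 45.0, F3 at 235 ± 40.2, Serpine2 at 200.2 ± 26.6 and Plat at 179 ± 29.0. Plau (42.8 ± 12.3) and Plaur (18.4 ± 5.15) were the lowest. The order between genes depends on the length used, which was 8287 bases for Serpine2, 6241 for Plat and 2527 for F3. Before division Serpine2 (1659) and Plat (1116) lay above F3 (593) in Ovx + AngII libraries.

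Blood and immune cell markers were set beside some of these genes. In a bulk tissue, fewer cells of a type and less RNA per cell cannot be told apart. The 5 erythroid markers summed to 11880 to 18310 rescaled counts in Ovx + AngII, 6997 to 15350 in Ovx, 16350 to 161800 in AngII and 6610 to 107200 in Control libraries. In both the AngII and the Control group, the order of the 4 libraries by erythroid sum was the same as their order by Serpina3n, but it was not in the Ovx + AngII or Ovx groups. Hbb-bs, a haemoglobin gene of the list, had a median of 0 over the 16 libraries and at most 231 rescaled counts. It was thus at 0 in Ctrl replicate 4 as well, where Hba-a1 had 90860 rescaled counts. The 4 neutrophil markers summed to 862 in Ctrl replicate 4 and to 60.8 to 210 in the other 15 libraries. In that library S100a8 and S100a9 had 209 and 255 rescaled counts, and Ly6g had 4.94. The 6 macrophage and monocyte markers summed to 31010 in Ctrl replicate 4 and to 9765 to 17920 elsewhere. Plau and Plaur were at their highest in that same library. The order of libraries by Plau matched that by macrophage and monocyte sum in no group. The order by Plaur matched those by neutrophil sum and by macrophage and monocyte sum in the Ovx + AngII group only. The part of these cells in the values of Serpina3n, Plau and Plaur was not tested.

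**Figure D3:**
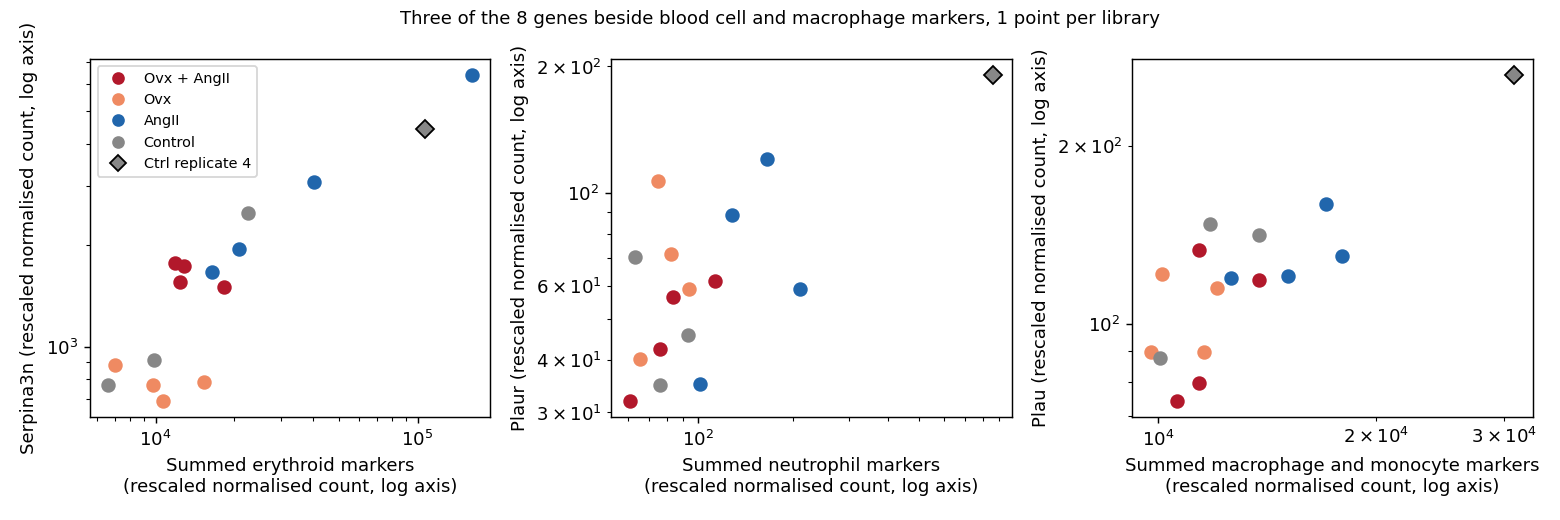
Rescaled counts of Serpina3n, Plaur and Plau (y axes, log) against the summed erythroid, neutrophil, and macrophage and monocyte markers (x axes, log), 1 point per library. Ctrl replicate 4 (diamond) has the highest neutrophil sum (862) and macrophage and monocyte sum (31010) of all libraries, and AngII replicate 4 has the highest erythroid sum (161800) with the highest Serpina3n (6376).

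Other marker sums differed between Ovx + AngII and Ovx libraries as well, beside the differences of Serpina3n, Serpinf1 and Tfpi. Atrial cardiomyocyte markers summed to 1011000 to 1117000 in Ovx + AngII against 651300 to 782500 in Ovx libraries. Smooth muscle and pericyte markers (6 genes) reached 13600 to 14250 against 9102 to 10370, and endothelial markers (6 genes) 25380 to 31130 against 23770 to 25140, none of them overlapping. Fibroblast markers (7 genes) overlapped, at 46800 to 59520 in Ovx + AngII and 44010 to 51900 in Ovx libraries. The largest part of the atrial cardiomyocyte sum was Nppa, with a median of 578199 rescaled counts over the 16 libraries. Myl4 came next, with a median of 128807. The endothelial sums were only just apart, with 25380 in the lowest Ovx + AngII library and 25140 in the highest Ovx library. Whether Tfpi, which was lower in Ovx + AngII libraries, is tied to these sums was not tested. Between AngII and Control libraries, where Serpinf1 did not overlap either, atrial cardiomyocyte markers were apart as well, at 833200 to 1100000 in AngII and 703300 to 800900 in Control. Smooth muscle and pericyte, endothelial and fibroblast sums overlapped there. The endothelial overlap rested on Ctrl replicate 4 alone (29530). The other controls had 22860 to 25430, against 28600 to 31150 in AngII libraries. The smooth muscle and pericyte overlap rested on AngII replicate 1 (10110), within the control range of 9298 to 11140. The part of cell makeup in these values, and that of Nppa alone in the atrial sums, was not tested.

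A ratio within a library does not depend on its scale. The ratio of F3 to Tfpi averaged 0.249 ± 0.0542 in Ovx + AngII, 0.219 ± 0.0305 in Ovx, 0.271 ± 0.0185 in AngII and 0.226 ± 0.0513 in Control libraries (SD, n = 4 each). The SDs of the groups compared overlapped.

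Genes with the most similar pattern were ranked by Pearson r of log2 rescaled values over the 16 libraries, among 12371 genes with a mean of at least 50. These r values describe 16 libraries in 4 groups that share the table's normalisation, and they carry no test. Plat was closest to Sh3tc1 (0.859), Ehd2 (0.851) and Ttpal (0.844). Plau was closest to Lpin2 (0.919), Cotl1 (0.905) and Ctsc (0.889), and Plaur to Ppm1f (0.919), Msr1 (0.854) and Icam2 (0.847). Each of these 6 values was lower, at 0.747 to 0.884, when Ctrl replicate 4 was left out. Serpine2 was closest to Myh11 (0.828), Wdr13 (0.816) and Nek8 (0.801), which were 0.771, 0.743 and 0.697 without Ctrl replicate 4. Serpina3n was closest to Cish (0.931) and Hbb-bt (0.928). Hbb-bt is a haemoglobin gene of the erythroid list. Serpinf1 was closest to Fam214b (0.957), Tnnt3 (0.955) and Itgbl1 (0.955), and after group means were removed these were 0.629, 0.799 and 0.423. F3 was closest to Foxred2 (0.896), Tctex1d2 (0.892) and Tef (0.873), and Tfpi to Ift81 (0.951), Aldh3b3 (0.933) and C1qtnf4 (0.926).

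The wider system was described with 4 lists of 100 other genes, also drawn up with earlier results of these libraries known. They hold the plasminogen system, coagulation factors and their brakes, other serpins, and other serine proteases of tissues with their Kunitz-type inhibitors. Of the 100 genes, 53 reached a mean of 10 and were tested. In Ovx + AngII against Ovx, 14 of the 53 passed (26.4%, against 10.1% of all genes), 12 of them higher and 2 lower. In AngII against Control 3 passed (5.66%, against 2.94% of all genes), all higher. The median log2 fold change of the 53 was 0.15 and 0.18 in these comparisons, against -0.01 over all genes in each.

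In the plasminogen system, 3 of 7 tested genes rose in Ovx + AngII against Ovx. Mrc2, an endocytic receptor that takes up collagen and associates with the urokinase receptor, rose in both AngII comparisons. It averaged 1707 ± 248 in Ovx + AngII and 1099 ± 69.6 in Ovx libraries (log2 fold change 0.63 ± 0.10, limma adjusted p = 0.00187), and 1851 ± 161 in AngII and 1349.8 ± 162 in Control libraries (0.46 ± 0.10, limma adjusted p = 0.0299). In the second comparison it stayed past the threshold in 12 of 16 fits that left out 1 library, and missed it without Ctrl replicate 1, Ctrl replicate 3, AngII replicate 1 or AngII replicate 3 (limma adjusted p up to 0.105).

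Lrp1, the scavenger receptor that clears complexes of activators and inhibitors, rose in Ovx + AngII against Ovx by 0.38 ± 0.09 (log2, limma adjusted p = 0.0168). Vtn, which encodes vitronectin, a plasma and matrix protein that binds integrins and the urokinase receptor, rose there by 0.83 ± 0.23 (limma adjusted p = 0.0318). In AngII against Control, Vtn did not rise (-0.12 ± 0.23, limma adjusted p = 0.831) and Lrp1 missed the threshold (0.29 ± 0.09, limma adjusted p = 0.0947). After rescaling, Vtn averaged 350 ± 28.1 in Ovx + AngII, 197 ± 34.0 in Ovx, 277 ± 40.3 in AngII and 325 ± 157 in Control libraries. Plg, which encodes plasminogen itself and is made mainly in liver, averaged 0.501 normalised counts over the 16 libraries and was not tested.

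Among coagulation factors and their brakes, 1 of 16 tested genes rose in Ovx + AngII against Ovx and 0 of 16 passed in AngII against Control, where 5 had an unadjusted limma p under 0.05. Of all 14261 genes, 2643 had such a p in AngII against Control. The gene that rose was Anxa5, an annexin that shields phospholipid surfaces from clotting factors, with 3622 ± 169 in Ovx + AngII and 2709 ± 157 in Ovx libraries (log2 fold change 0.42 ± 0.09, limma adjusted p = 0.00761). Thbd, the endothelial thrombin receptor thrombomodulin, did not pass in either comparison. It had 2903 ± 289 in Ovx + AngII and 2732 ± 223 in Ovx libraries, and 3428 ± 422 in AngII and 3111 ± 499 in Control libraries. Procr, the endothelial receptor for protein C, had 295, 113, 109 and 125 in AngII libraries, against 63.5, 59.5, 88.1 and 93.5 in Control libraries. Its groups did not overlap, yet it missed the threshold (0.96 ± 0.29, limma adjusted p = 0.0874). The value was 0.62 without AngII replicate 1 (limma adjusted p = 0.206) and 1.06 without Ctrl replicate 4, where alone of the 16 fits it passed (limma adjusted p = 0.0401). Procr averaged 101 ± 22.6 in Ovx + AngII and 98.1 ± 24.9 in Ovx libraries.

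Of the other serpins, 4 of 13 tested genes rose in Ovx + AngII against Ovx, and 0 of 13 passed in AngII against Control, where 3 had an unadjusted limma p under 0.05. So had 2643 of all 14261 genes. Serpinb8, an intracellular inhibitor of furin-like proteases, averaged 241 ± 18.7 in Ovx + AngII and 145 ± 20.1 in Ovx libraries (log2 fold change 0.73 ± 0.16, limma adjusted p = 0.00968). Serpinh1, the collagen chaperone of the endoplasmic reticulum, which inhibits no protease, rose by 0.58 ± 0.15 (limma adjusted p = 0.0238). The remaining members were Serpinb6b (0.38 ± 0.10) and Serpinb9b (2.60 ± 0.68), from clusters of closely related genes between which reads can be divided. Serpinb9b was scarce, at 23.8 ± 12.2 in Ovx + AngII and 4.26 ± 4.86 in Ovx libraries, and its libraries overlapped.

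Other tissue proteases and Kunitz inhibitors had 6 of 17 tested genes past the threshold in Ovx + AngII against Ovx, 4 higher and 2 lower, and 1 of 17 in AngII against Control. Prss23, a secreted serine protease, rose in both. It averaged 2795 ± 93.1 in Ovx + AngII and 1479 ± 117 in Ovx libraries (log2 fold change 0.92 ± 0.10, limma adjusted p = 9.70e-05), and 2771 ± 303 in AngII and 1689 ± 250.2 in Control libraries (0.72 ± 0.10, limma adjusted p = 0.00268). It passed in all 16 fits that left out 1 library, in both comparisons, but not in a fit of only the AngII and Control libraries (limma adjusted p = 0.0837). App, whose longer isoforms carry a Kunitz domain, rose in Ovx + AngII against Ovx by 0.43 ± 0.10 (limma adjusted p = 0.0156). Spint2, a membrane-bound Kunitz inhibitor, fell by 0.42 (SE 0.10, limma adjusted p = 0.0116), and Htra1, a secreted serine protease, fell by 0.33 (SE 0.10, limma adjusted p = 0.0448). Fap, a fibroblast activation protease (0.88 ± 0.22), and St14, a membrane protease at 24.2 ± 14.5 in Ovx + AngII and 5.33 ± 2.48 in Ovx libraries (1.88 ± 0.52), rose as well. Vtn, Serpinh1, Serpinb6b, Serpinb9b, Fap and St14 were named after their values were seen.

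**Figure D4:**
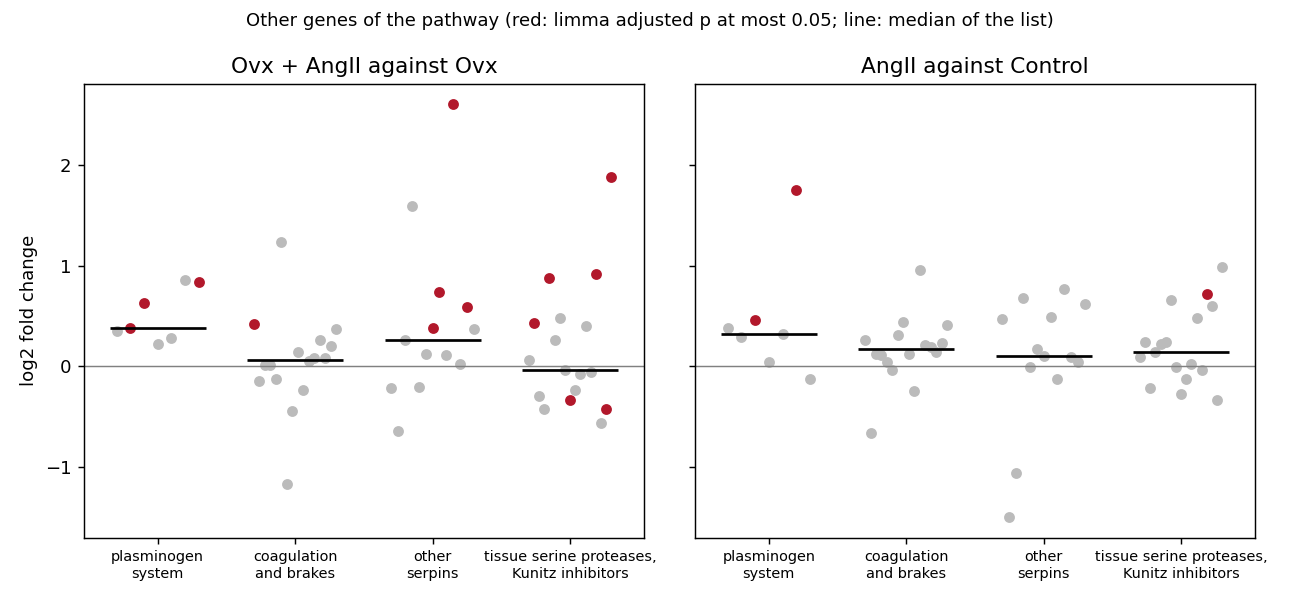
Log2 fold change (y axis) of the 53 tested genes in 4 lists (x axis) for Ovx + AngII against Ovx and AngII against Control, with genes past the limma threshold in red and the median of each list as a line. In Ovx + AngII against Ovx 14 genes are red, and in AngII against Control 3 are.

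The number of list genes past the threshold in AngII against Control rested on single libraries. It was 14 (11 higher and 3 lower) without Ctrl replicate 4 and 1 without Ctrl replicate 1, Ctrl replicate 3, AngII replicate 1 or AngII replicate 3. Without Ctrl replicate 4 the share of all genes past the threshold rose too, from 2.94% to 10.3%. In Ovx + AngII against Ovx the number of list genes was 6 without Ovx replicate 2 or Ovx + AngII replicate 3, 8 without Ovx replicate 3 or 4, and 9 without Ovx + AngII replicate 4. Of the 14 genes there, Mrc2, Anxa5, Serpinb8, Spint2 and Prss23 passed in all 16 fits that left out 1 library, App and Lrp1 in 15, Fap and Serpinb9b in 11, Serpinb6b, Serpinh1 and St14 in 10, Vtn in 9 and Htra1 in 7, with limma adjusted p up to 0.118. None of the 53 passed in Ovx against Control, in Ovx + AngII against AngII or in the interaction, where 7, 5 and 6 had an unadjusted limma p under 0.05. Among all 14261 genes, 1234, 879 and 826 did in these comparisons. The median log2 fold change of the 53 in these was -0.10, -0.06 and -0.03, against -0.01, 0.01 and 0.01 over all genes.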

How the data were processed

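Left atrial RNA was made into 16 libraries with a stranded mRNA kit. The authors aligned reads with STAR to mm10, quantified genes with Salmon and normalised them with DESeq2, and versions are not given in the sources used here. Each deposited value is a signal, a read count over the size factor of its library, and not a whole number, so tests for raw counts were not applied. Whether counting used strand is not given in the sources used here. Of 24972 gene names, 5997 were at 0 in every library, and 14 had become dates (0.0721% of all values) and were left out.

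The 8 genes and the 4 lists were chosen with earlier results of these data known. Groups came from the GEO labels, and replicate numbers follow deposition order. Genes with a mean of at least 10 (14261) were analysed as log2(value + 1), which understates changes of low genes. In limma 3.58.1 (R 4.3.3), 1 linear model with a mean per group took in the 16 libraries (mean trend, two-sided), with Benjamini-Hochberg adjustment over all genes and a threshold of 0.05. It was tested on simulated data first. Comparisons across ovariectomy used median-of-ratios rescaled values. Plg, Thbd and Procr were always named, with up to 6 list genes per direction and comparison by smallest adjusted p, and the 3 genes nearest in pattern to each of the 8. Some results that these rules would name are not reported here, though the counts include them. Alternatives were pseudocounts 0.5 and 5, no filter, a mean of at least 50, other scalings, fits of only the groups compared, array weights, a robust fit, the study's fold threshold, and libraries left out. Counting intervals were not given, because the table holds no read counts.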

Additional observations from a re-analysis of the deposited data

Results flagged for a closer look

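In 4 of 96 groups of 4 libraries checked for the 8 genes and the named list genes, 1 library lay far from the other 3, about the share that chance gives (1 in 20). Tfpi had 2340 normalised counts in AngII replicate 4, against 2610 to 2630 in the other AngII libraries. Thbd had 4050 in AngII replicate 4, against 3140 to 3290, and Procr had 295 in AngII replicate 1, against 109 to 125. Serpinb6b had 1280 in Ctrl replicate 2, against 1590 to 1650 in the other controls. The values of Serpina3n, Plau and Plaur in Ctrl replicate 4 did not meet this criterion.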

How the results depend on the processing

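The count of list genes past the threshold in AngII against Control, 3 of 53, was 1 with the study's added threshold of a fold of at least 2, 0 in a fit of only those groups, 10 with array weights and 15 without Ctrl replicate 4 and AngII replicate 4 together, and it ran from 1 to 14 when each library was left out. In Ovx + AngII against Ovx, 14 of 53, it was 2 with the fold threshold, 22 in a fit of only those groups and 23 with array weights, and it ran from 6 to 18. In Ovx against Control, 0 of 53, it was 6, all lower, on deposited values, which carry the difference in scale. The counts in Ovx + AngII against AngII and in the interaction were 0 under each alternative run. The causes of the other shifts were not tested. Apart from leaving out Ctrl replicate 4, the share of all genes past the threshold is not given for these alternatives. Shifts of the lists and of the whole table can therefore not be told apart there. Fold changes of the 8 genes moved by less than the spread between libraries in 859 of 864 settings. The exceptions were Serpinf1 with equal column totals in Ovx + AngII against Ovx (0.75), and deposited values of Serpinf1 and Tfpi in Ovx against Control (-0.36 and -0.02) and in Ovx + AngII against AngII (-0.28 and -0.17). Several of these settings cannot move a fold change at all. They are the filters, the robust fit, the fit of only the groups compared, and leaving out a library of another group. A turn of sign within the spread between libraries counted as no move, such as that of Plau and F3 without Ctrl replicate 4. For the named list genes, 68 of 1828 settings lost a call, 23 gained one and 1737 changed none. No direction of a called value reversed. No paired analysis was possible because the labels give no shared replicate numbers, batch or litter. The table holds no read counts, so depth could not be used to judge low genes such as Plaur, Serpinb9b and St14.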
